A study of Mus musculus with 12 samples.

Results

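Oligodendrocyte and myelin genes were followed here as a set of 9: Mag, Mog, Opalin, Mbp, Mobp, Cnp, Cldn11, Mal and Ugt8a. Every probe set listed with these symbols was read, and a gene's main value is that of its brightest probe set on average across all 12 arrays. The 9 genes are part of 17097 genes named on the arrays and of 13074 that passed the filter on low values. The tissues came from male BALB/c mice aged 10 weeks and were taken at 3 times: at death (0 h), 3 h later with the body at room temperature, and 18 h later with storage at 4 °C. At each time a piece was kept fresh-frozen (FF, in RNAlater, with 3' in vitro transcription labelling) or formalin-fixed and paraffin-embedded (FFPE, with a whole-transcript kit made for such RNA). Each of these 12 conditions is 1 array, so every test below pools arrays of different conditions. The labels name no brain region, do not say how many animals were used, and do not say whether arrays share an animal. Preservation always changed together with the labelling kit, and time together with storage temperature.

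Oligodendrocytes wrap axons of the central nervous system in myelin, a stack of membrane made of a small set of proteins and of galactolipids. Mag, an adhesion protein, faces the axon, Mog lies on the outermost sheath, and Opalin is a glycoprotein of the oligodendrocyte membrane. Mbp and Mobp hold the cytoplasmic faces of compact myelin together, and Cnp is the phosphodiesterase of the cytoplasmic channels. Cldn11 forms the tight junctions between wraps, Mal is a raft protein of myelin membrane traffic, and Ugt8a makes galactosylceramide. The transcription factors Sox10 and Myrf are known activators of myelin genes in these cells. In bulk tissue fewer cells of a type and less RNA per cell cannot be told apart.

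The region upstream of the start was read for 8 of the 9 genes, the 250 bases before the start that the RefSeq promoter table (GRCm38.p6) uses. For Cnp and Ugt8a that start lies inside the annotated gene, so their windows begin upstream and end within it. They are shown for 3 genes because Mag and Mobp had the same order of levels over the 3 times in both brain series, while Mog did not. Capitals mark matches, on either strand, to ACAAAG, the core read by SOX factors, and to CTGGCAC or CTGGTAC, the core read by MYRF. Mag lies on the minus strand, with this window at chr7:30914923-30915172, Mobp on the plus strand at chr9:120149492-120149741, and Mog on the minus strand at chr17:37023399-37023648.
Mag: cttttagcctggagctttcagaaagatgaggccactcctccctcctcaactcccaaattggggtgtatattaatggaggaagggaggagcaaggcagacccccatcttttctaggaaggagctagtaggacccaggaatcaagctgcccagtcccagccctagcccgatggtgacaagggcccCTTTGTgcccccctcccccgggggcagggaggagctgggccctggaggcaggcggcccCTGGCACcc
Mobp: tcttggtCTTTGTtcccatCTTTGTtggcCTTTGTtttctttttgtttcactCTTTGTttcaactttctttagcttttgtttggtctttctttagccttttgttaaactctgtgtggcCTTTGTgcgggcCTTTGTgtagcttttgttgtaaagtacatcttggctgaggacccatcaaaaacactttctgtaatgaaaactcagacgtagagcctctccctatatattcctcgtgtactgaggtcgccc
Mog: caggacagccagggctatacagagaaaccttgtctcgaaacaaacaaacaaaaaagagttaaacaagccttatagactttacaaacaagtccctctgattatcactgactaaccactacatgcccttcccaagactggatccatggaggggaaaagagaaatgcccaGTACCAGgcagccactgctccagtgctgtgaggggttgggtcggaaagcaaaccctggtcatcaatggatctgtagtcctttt
The SOX core was found in 4 of the 8 windows (Mag, Mobp, Cnp and Opalin), against 16.5% of 32851 windows of that length. Mobp held 6 copies, and its own window was the 1 of the 32851 (0.003%) that reached that number. It was singled out after its count was seen. The MYRF core was found in 3 of 8 (Mag, Mog and Cnp), against 5.9% of all windows, and no MYRF match overlapped a SOX match. A GC box (GGGCGG) was present in 2 of 8 (Ugt8a and Cnp), against 32.7%, and TATAAA in 0 of 8, against 12.4%. These matches describe the letters in the windows, not occupied sites.

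The level of the 9 genes was read first in brain against liver, which checks the tissue labels. By main probe set, every brain array stood above every liver array within each preservation for all 9 genes. That held for 37.1% of all genes tested in FF and 30.7% in FFPE. Cldn11, Ugt8a, Mobp, Mog and Mbp passed the filter only through the brain arrays, so their difference is a description, with no test. The first 4 of them lay below the array median on all 6 liver arrays. Cldn11 read 3.25 to 3.31 in FF liver and 3.31 to 3.39 in FFPE liver. Ugt8a was at 3.64 to 3.67 and 3.50 to 3.69 in the same series, Mobp at 3.47 to 3.85 and 3.79 to 3.91, and Mog at 3.56 to 3.67 and 4.23 to 4.43.

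Mbp read 4.61 to 5.15 in FF liver, at or above the array median on 1 of 3 arrays, and 3.52 to 3.69 in FFPE liver. Its brain mean was higher by 7.13 in FF and 7.37 in FFPE on the log2 scale.

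The other 4 genes, Mag, Opalin, Mal and Cnp, reached the array median on at least 3 liver arrays and were all higher in brain (limma, Benjamini-Hochberg adjustment; 37.5% of all genes were called higher in FF brain and 29% in FFPE brain). Mag differed by 2.11 ± 0.14 in FF (log2 difference ± SE, 3 arrays against 3, adjusted p = 9.37e-09) and 1.46 ± 0.14 in FFPE (adjusted p = 5.9e-07). Opalin had the narrowest gap among the main probe sets, at 1.86 ± 0.15 in FF (adjusted p = 1.04e-07) and 0.78 ± 0.15 in FFPE (adjusted p = 0.000513). In FFPE liver Opalin still read 6.03 to 6.31, above the array median, while FFPE brain held 6.75 to 7.26. Mag in FF liver lay at 5.83 to 6.20, within reach of FFPE brain at 5.08 to 6.01. A level of Mag therefore separated brain from liver within a preservation but not across the preservations. Mal and Cnp differed by 2.55 ± 0.12 and 2.39 ± 0.15 in FF and by 1.99 ± 0.12 and 2.13 ± 0.15 in FFPE (largest adjusted p = 2.23e-08). Other probe sets gave other gaps in FF and FFPE: 5.59 and 4.57 for Mal (1417275_PM_at), and 1.33 and 0.87 for Cnp (1449296_PM_a_at). The 1441308_PM_at set of Mobp gave -0.16 and 1.25. The remaining tested sets of Mbp and Mobp were higher in brain in both. The second sets of Opalin and Ugt8a, below the filter, averaged 3.33 and 4.03 in FF brain against 3.59 and 4.24 in FF liver. In FFPE they averaged 3.32 and 4.96 against 3.33 and 4.09.

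**Figure D1:**
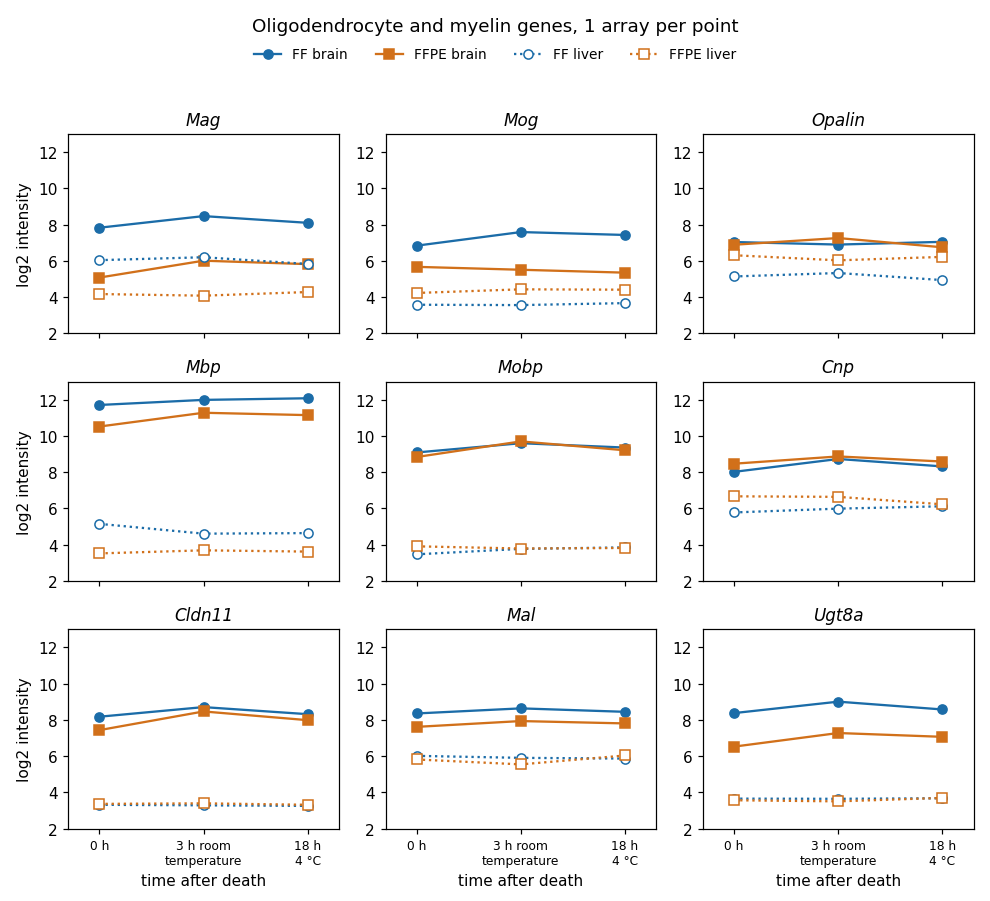
Log2 level of each of the 9 genes (y axis) at the 3 times after death (x axis), 1 array per point, for FF brain, FFPE brain, FF liver and FFPE liver. Brain lies above liver within each preservation, and for Mag, Mobp, Cnp, Cldn11, Mal and Ugt8a both brain lines peak at 3 h.

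Whether the levels differed with time after death was asked in brain, with FF and FFPE arrays together. All 9 genes had a positive estimate at 3 h, but 0 of 9 passed after adjustment over all genes (limma; 0.0765% of all genes were called in either direction and 0.0459% higher). At an unadjusted p under 0.05, 6 of 9 were higher, where 2.91% of all genes were. The median difference of the 9 was 0.56, against 0.015 over all genes tested. The 9 genes were chosen with such results known, so these counts describe them and support nothing.

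Among the surface proteins, Mag had log2 levels of 7.83, 8.47 and 8.10 in the 0 h, 3 h and 18 h arrays of FF brain. Those of FFPE brain were 5.08, 6.01 and 5.82. The 0 h array was the lowest and the 3 h array the highest in both series, and the difference at 3 h was 0.79 ± 0.17 (limma adjusted p = 0.205, 2 arrays against 2). Mog had 0 h at opposite ends in the preservations, with 3 h above 18 h in both. In FF brain it read 6.84, 7.59 and 7.43, with 0 h lowest, and in FFPE brain 5.67, 5.51 and 5.35, with 0 h highest. The pooled difference of 0.30 ± 0.20 at 3 h (95% interval -0.14 to 0.73, adjusted p = 0.995) therefore averages opposite signs, and without the FF 0 h array it was -0.16. Opalin read 7.04, 6.90 and 7.05 in FF brain and 6.89, 7.26 and 6.75 in FFPE brain, with no order shared by the series. Its difference at 3 h was 0.12 ± 0.19 (95% interval -0.29 to 0.52, adjusted p = 0.995), and it turned to -0.18 without the FFPE 3 h array.

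Among the proteins of compact myelin and its channels, Mbp read 11.71, 11.99 and 12.08 in FF brain in the same order of times. In FFPE brain Mbp was 10.52, 11.28 and 11.15. Both later arrays were above 0 h in each series, with 18 h highest in FF and 3 h highest in FFPE, and the 3 h difference was 0.52 ± 0.18 (limma adjusted p = 0.8). Mobp was at 9.09, 9.60 and 9.36 in FF brain and at 8.84, 9.70 and 9.21 in FFPE brain. The 3 h array was highest in both, by 0.69 ± 0.16 over 0 h (limma adjusted p = 0.268). Cnp stood at 8.02, 8.73 and 8.32 in FF brain and at 8.47, 8.87 and 8.59 in FFPE brain. It had the same order, with a difference of 0.56 ± 0.18 (limma adjusted p = 0.737).

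Of the junction, traffic and lipid genes, Cldn11 read 8.17, 8.70 and 8.31 in FF brain. In FFPE brain it read 7.43, 8.46 and 7.98, and the step of 1.03 from 0 h to 3 h was the largest of the 9 in a single pair. Its pooled difference at 3 h was 0.78 ± 0.15 (limma adjusted p = 0.148). Ugt8a was 8.37, 9.0 and 8.57 in FF brain and 6.52, 7.27 and 7.06 in FFPE brain. The 0 h array was again lowest, and the difference at 3 h was 0.69 ± 0.14 (limma adjusted p = 0.17). By main probe set, Mal moved least among the genes with a shared order, at 8.35, 8.63 and 8.44 in FF brain and 7.61, 7.93 and 7.80 in FFPE brain. Its difference was 0.30 ± 0.15 (95% interval -0.03 to 0.63, limma adjusted p = 0.987). The other Mal set (1417275_PM_at), brighter in brain, had the same order and a larger difference of 0.455 ± 0.216 (limma adjusted p = 0.994 over probe sets).

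At 18 h the estimates were smaller. None of the 9 passed after adjustment (limma; 0.0306% of all genes called in either direction), and at an unadjusted p under 0.05 the 4 genes Mag, Mbp, Ugt8a and Cldn11 were higher, where 1.98% of all genes were. Mag differed by 0.51 ± 0.17, Mbp by 0.50 ± 0.18, Ugt8a by 0.37 ± 0.14 and Cldn11 by 0.35 ± 0.15 (limma adjusted p = 0.995 for each). The remaining 5 lay between -0.07 (Opalin) and 0.32 (Mobp), and the median of the 9 was 0.32 against 0.015 over all genes. The 3 h and 18 h comparisons share the 0 h arrays and are not independent.

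Set against 3 h, which uses no 0 h array, the 18 h estimates were negative for all 9, where 49.5% of all genes were negative. They ran from -0.44 (Cldn11) to -0.02 (Mbp), with a median of -0.28. None passed after adjustment (limma adjusted p = 0.995 for each; 0.0153% of all genes called), and Cldn11, Ugt8a and Mobp had an unadjusted p under 0.05, where 1.68% of all genes were lower at that level. With both later times together, 0 of 9 passed against 0 h (0.0459% of all genes called) and 6 of 9 were higher at an unadjusted p under 0.05 (2.66% of all genes), from 0.38 ± 0.15 for Cnp to 0.65 ± 0.15 for Mag.

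The order of the arrays was also read without a model. Both later brain arrays exceeded the 0 h array in both preservations for 7 of 9 genes, all but Mog and Opalin, as for 14.5% of all genes tested. The full order of 0 h lowest, 18 h next and 3 h highest held in both series for 6 of 9 (Mag, Mobp, Cnp, Cldn11, Mal and Ugt8a), as for 4% of all genes. These counts use main probe sets, and the other sets of Mobp and Cnp did not hold the full order. In liver neither pattern held for any of the 9 (12.3% and 1.86% of all genes). In brain the first pattern also held for 14 of 24 other oligodendrocyte genes, 6 of 10 astrocyte and 5 of 8 choroid plexus markers. It held for 4 of 11 endothelial markers and for at most 3 genes in each other list described below.

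**Figure D2:**
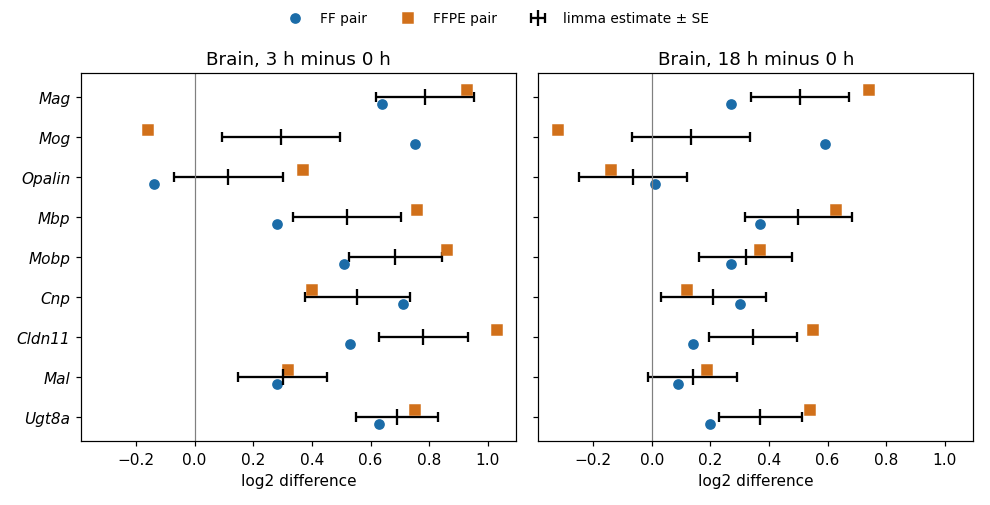
Log2 difference from 0 h in brain (x axis) for each gene (y axis) at 3 h (left) and 18 h (right); circles are the FF pair, squares the FFPE pair, and the bar is the limma estimate ± SE from both. At 3 h the FF and FFPE pairs lie on the same side of 0 for 7 genes and on opposite sides for Mog and Opalin.

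Single pairs of arrays have no replicate check and are given as sizes. From 0 h to 3 h, Mag, Ugt8a, Mog and Cnp were at least 1.5-fold higher in FF brain (4 of 9, against 1.33% of all genes). In the FFPE pair these were Mag, Cldn11, Ugt8a, Mbp and Mobp (5 of 9, against 1.22%). From 0 h to 18 h, Mog was past that size in FF (0.742% of all genes), and Mag and Mbp in FFPE (1.1%). The FF pairs had medians over the 9 of 0.53 (3 h) and 0.27 (18 h), and the FFPE pairs 0.75 and 0.37. No member was 1.5-fold higher in a liver pair, where 1.57% (3 h) and 7.14% (18 h) of all genes reached that size in the FF pairs, and 1.98% and 2.96% in the FFPE pairs.

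In liver the 9 genes, each by its main probe set, showed 0 calls at 3 h and at 18 h after adjustment, where limma called 0.245% and 14.5% of all genes in either direction. They showed 0 at an unadjusted p under 0.05 too, where 9.22% and 27.5% of all genes were called. Their medians were 0.00 and -0.05. With each probe set tested on its own, 1 was called: the other probe set of Cnp (1449296_PM_a_at) fell by 0.52 ± 0.16 in liver at 18 h (adjusted p = 0.0468). The largest liver estimates were those of Mal at 3 h (-0.19 ± 0.15) and of Mbp at 18 h (-0.21 ± 0.18). The brain change minus the liver change was itself tested. It had 0 of 9 calls at 3 h (0.0153% of all genes) and 0 of 9 at 18 h (4.48%), and at an unadjusted p under 0.05 it was above 0 for 6 genes at 3 h (4.4% of all genes) and for Mag and Mbp at 18 h (13.8%). Cldn11, Ugt8a and Mobp, which are among the 6, lay below the array median on every liver array, and Mbp on all but 1. Their tissue difference therefore mainly repeats the brain change. For Cldn11 it was 0.78 at 3 h, as in brain alone, and is given without a test. With each probe set on its own, the other set of Cnp passed for this difference at 18 h (0.94 ± 0.22, adjusted p = 0.0312), from its fall in liver and an estimate of 0.43 ± 0.16 in brain (adjusted p = 0.996).

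A second list held 31 other oligodendrocyte and myelin genes, of which 24 were tested. None passed in brain at 3 h or 18 h after adjustment. At 3 h, 12 were higher and 0 lower at an unadjusted p under 0.05 (2.91% and 2.32% of all genes), 21 had a positive estimate, and the median was 0.33; at 18 h the median was 0.19 with 4 higher. Cryab, a small heat shock protein abundant in oligodendrocytes, read 9.01, 9.64 and 9.14 in FF brain and 8.29, 9.47 and 8.64 in FFPE brain. It was highest at 3 h in both, by 0.91 ± 0.19 (limma adjusted p = 0.18). Anln, an actin-binding protein of the myelin sheath, read 7.83, 8.54 and 8.11 in FF and 4.53, 5.03 and 4.90 in FFPE (0.61 ± 0.14, adjusted p = 0.268). Gsn, an actin-severing protein, differed by 0.64 ± 0.24 and Gpr37, an orphan receptor of oligodendrocytes, by 0.47 ± 0.15 (adjusted p = 0.83 and 0.722). In liver Gsn read 5.96, 6.93 and 7.73 in FF and 5.39, 6.54 and 6.09 in FFPE, also with 0 h lowest in both.

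Of 12 oligodendrocyte transcription factors, 8 were tested and 0 passed, with a median of 0.34 at 3 h and 0.11 at 18 h. Olig2, the lineage factor of these cells, read 6.72, 7.26 and 7.04 in FF brain and 3.82, 4.44 and 4.11 in FFPE brain. It was lowest at 0 h and highest at 3 h in both, by 0.58 ± 0.14 (limma adjusted p = 0.297). Its FFPE brain levels lay below the array medians of 4.87 to 4.88. Of the 8, Olig2 was the 1 with both later arrays above 0 h in both series (14.5% of all genes). Sox10 had the opposite sign, at 5.39, 5.25 and 5.28 in FF and 6.34, 5.85 and 6.01 in FFPE (-0.32 ± 0.16, adjusted p = 0.977); its liver arrays read 5.32 to 5.97, against 5.25 to 5.39 in FF brain. Tcf7l2, an effector of Wnt signalling, had an estimate of 0.86 ± 0.33 that came from 1 array, since FF brain read 4.98, 6.73 and 5.13 and FFPE brain 5.03, 4.99 and 5.07.

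Precursor cell markers (12 of 15 tested) had -0.07 at 3 h and -0.09 at 18 h, and peripheral myelin and Schwann cell markers (4 of 9) -0.07 and 0.10. Enzymes of galactolipid and very-long-chain lipid synthesis (16 of 17) stood at 0.10 and 0.02. Within them Fa2h, which makes the hydroxylated fatty acids of myelin lipids, was 0.47 ± 0.15 at 3 h (limma adjusted p = 0.75). Cholesterol synthesis genes (14 of 18) had -0.09 and -0.02, and axonal and node of Ranvier partners (15 of 16) 0.13 and 0.01. None of these 5 lists had a member that passed. Of the 15 axonal and node partners, 3 were higher and 0 lower at 3 h at an unadjusted p under 0.05 (2.91% and 2.32% of all genes). Nefh, on that list, read 8.24, 8.85 and 8.22 in FF brain and 5.62, 6.33 and 5.65 in FFPE brain. It was highest at 3 h in both, by 0.66 ± 0.15 over 0 h (limma adjusted p = 0.28). Astrocyte markers (10 of 12) had medians of 0.12 and 0.19 at 3 h and 18 h, with all 10 positive at 18 h. Microglia markers (9 of 12) had -0.09 and 0.16, with 3 of 9 higher at 18 h at an unadjusted p under 0.05 (1.98% of all genes), and endothelial markers (11 of 11) -0.03 and 0.09. No astrocyte, microglia or endothelial marker passed after adjustment.

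Markers of other cells and regions moved between the same arrays. Of 16 tested hepatocyte markers, Ttr, a carrier made in liver and choroid plexus and on both lists, rose at 3 h. Mup3 and Apoa1 fell (Apoa1 is named after its values were seen), 12 were lower at an unadjusted p under 0.05 (2.32% of all genes), and the median was -0.94. The mean log2 levels of the 16 over the 3 times were 6.46, 5.01 and 4.92 in FF brain, and 5.14, 5.00 and 4.95 in FFPE brain. These means include Ttr, which read 8.68, 12.72 and 12.21 in FF brain and 5.77, 12.52 and 12.03 in FFPE brain. Only 1 of the 16, Ttr, had a positive estimate at 3 h, so its rise offsets part of the others' fall in these means. The major urinary protein gene Mup3 was at 9.56, 6.75 and 5.98 in FF brain and 7.12, 3.56 and 3.39 in FFPE brain. Choroid plexus and ependymal markers (8 of 12 tested) had a mean of 4.71, 6.13 and 5.62 in FF brain and 4.98, 6.03 and 5.81 in FFPE brain, with a median difference of 0.73 at 3 h. At 3 h the hepatocyte median was -0.31 without the FF 0 h array and -1.54 without the FFPE 0 h array, and the choroid plexus median 0.33 and 1.12. Striatal projection neuron markers (8 of 10) were lower at 3 h for all 8 by estimate, with a mean of 8.45, 7.98 and 8.12 in FF and 7.90, 7.48 and 7.70 in FFPE. One of them, the substance P precursor gene Tac1, fell by 1.14 ± 0.17 (adjusted p = 0.0288). Neuron markers (16 of 16 tested) had medians of 0.09 at 3 h and 0.015 at 18 h, with 10 positive at 3 h. The 1 that passed at 3 h, the glutamate transporter gene Slc17a6, rose by 1.04 ± 0.16 (limma adjusted p = 0.0288). It read 6.81, 8.06 and 6.95 in FF brain and 4.24, 5.06 and 4.21 in FFPE brain. There the 0 h and 18 h levels lay below the array medians of 4.88 and 4.87. Whether these marker differences have a part in the myelin gene estimates after 0 h, none of which passed, was not tested. 

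**Figure D3:**
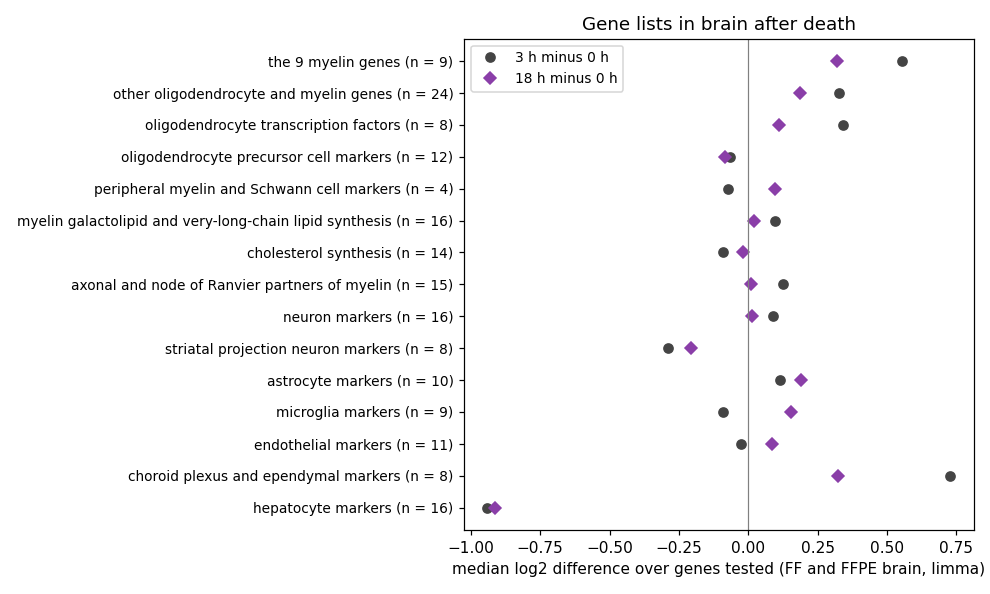
Median log2 difference from 0 h in brain (x axis) for the 9 myelin genes and each list (y axis, with the number of genes tested); circles are 3 h and diamonds 18 h. At 3 h the 9 genes have 0.56 and the other oligodendrocyte genes 0.33, while choroid plexus markers have 0.73, striatal markers -0.29 and hepatocyte markers -0.94.

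The genes whose pattern was most like the mean of the 9 were sought over the 6 brain arrays, each series centred on its own mean. Over the 3 times the mean of the 9 was -0.24, 0.23 and 0.01 in FF brain and -0.29, 0.29 and 0.00 in FFPE brain. Among 1546 other genes with an SD of at least 0.2, 25 (1.62%) had a Pearson r of 0.95 or more. Olig2 was first (r = 0.997), then Gsn (0.988), Pcdh20 (0.986), Hectd2 (0.986), Plekhb1 (0.985), Zcchc24 (0.985), Gla (0.984), which encodes a lysosomal galactosidase, and Rora (0.983). Olig2, Gsn and Plekhb1 are on the lists above, and the other 5 are not. Gsn was also higher after 0 h in liver. Olig2 lay below the array median on every FFPE brain array. Plekhb1 read 10.25, 10.57 and 10.41 in FF brain and 9.23, 9.81 and 9.54 in FFPE brain. Rora, a nuclear receptor gene, moved further, at 6.34, 7.41 and 6.81 in FF and 6.89, 7.94 and 7.27 in FFPE. Within the 9, r to their own mean, which each gene helps to make, was 0.988 for Mobp and 0.984 for Mal but 0.406 for Mog and 0.364 for Opalin. These are descriptions over 6 arrays that share 3 times.

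FFPE was then compared with FF across the 3 times. In brain 6 of the 9 were lower in FFPE and 0 higher on the deposited values, where 53.4% of all genes were called lower and 28.4% higher, with a median over all genes of -0.42. Mag fell furthest, by 2.50 ± 0.14 (log2, 3 arrays against 3, limma adjusted p = 3.31e-09), and every FFPE brain array (at most 6.01) lay below every FF one (at least 7.83). Mog fell by 1.78 ± 0.16 (adjusted p = 3.83e-07) and Ugt8a by 1.70 ± 0.12 (adjusted p = 2.11e-08). Mbp fell by 0.94 ± 0.15 (adjusted p = 6.28e-05), and these 4 were lower under quantile normalization of all arrays too, at -1.99, -1.31, -0.89 and -0.84. Mal fell by 0.69 ± 0.12 (adjusted p = 0.000182) but stood at 0.20, not called, under quantile normalization. Cldn11 fell by 0.44 ± 0.12 (adjusted p = 0.00534) but was called higher, by 0.45, under quantile normalization (adjusted p = 0.00407). Mobp (-0.10 ± 0.13), Opalin (-0.03 ± 0.15) and Cnp (0.29 ± 0.15) did not pass, and under quantile normalization all 3 were called higher, at 0.60, 0.82 and 1.16 (largest adjusted p = 0.00107). That normalization moved the median of all genes to -0.12 and the calls over all genes to 43% lower and 34.5% higher, and median centring moved the median to -0.62. Every FFPE brain array lay below every FF one for 5 of 9 (Mag, Ugt8a, Mbp, Mog and Mal), as for 54.9% of all genes.

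The probe sets of 1 gene did not always give the same answer. Mbp has a second probe set (1451961_PM_a_at) that read 9.22, 10.06 and 10.02 in FF brain and 10.79, 11.37 and 11.34 in FFPE brain. It was higher in FFPE by 1.40 ± 0.16 (limma adjusted p = 3.11e-06 over 20791 probe sets tested), opposite to the first, and the mean of its probe sets gave 0.23. Over time the second set went the same way as the first, by 0.71 ± 0.20 at 3 h (adjusted p = 0.553). Mobp has 4 probe sets, of which 2 were lower in FFPE brain (1436263_PM_at by -1.22 ± 0.14 and 1450088_PM_a_at by -0.73 ± 0.11), 1 higher (1441308_PM_at by 1.68 ± 0.12), and the brightest differed by -0.10 ± 0.13. The 1441308_PM_at set read 3.94 to 4.16 in FF brain and 5.64 to 5.82 in FFPE brain, and it had no shared order over time. The 2 lower sets were highest at 3 h in both series, but each had 18 h lowest in 1 series. In FF 1436263_PM_at read 7.73, 8.03 and 7.70, and in FFPE 1450088_PM_a_at read 6.59, 7.16 and 6.56. Cnp's other set was highest at 18 h in FF (6.91, 7.14 and 7.34). The other tested sets of Mbp and Mal had 0 h lowest and 3 h highest in both series. Both Mal sets were lower in FFPE brain, the other one (1417275_PM_at) by 0.87 ± 0.18 (adjusted p = 0.00049), from levels of 9.78, 10.11 and 9.95 to 8.73, 9.31 and 9.18. Cnp's other set (1449296_PM_a_at) was higher in FFPE brain by 0.36 ± 0.13 (adjusted p = 0.0191). A further probe set is shared by Mbp and Ctbp2 and was not used for either. The second sets of Ugt8a and Opalin were not tested, since they lay below the filter.

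**Figure D4:**
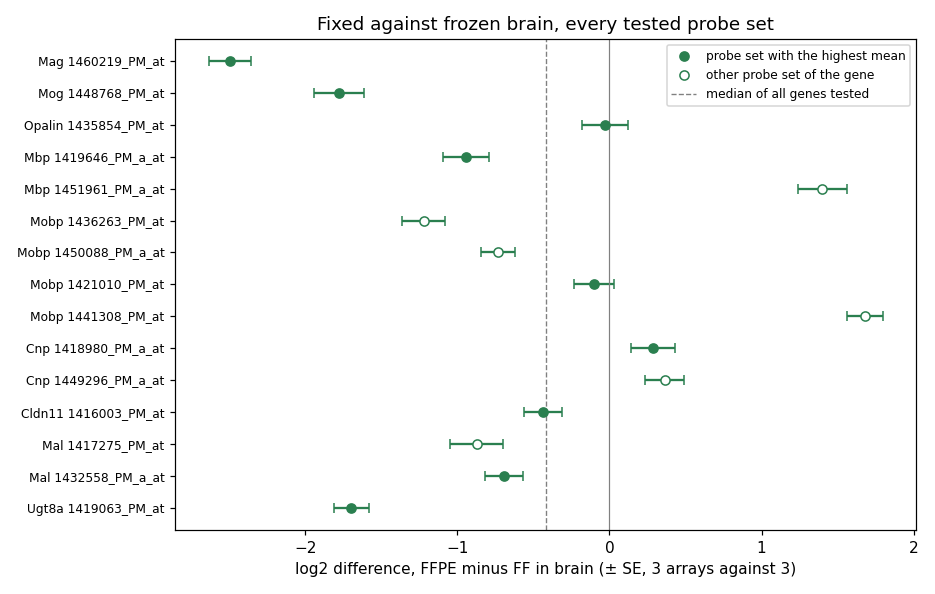
FFPE minus FF in brain (x axis, log2 difference ± SE from limma, 3 arrays against 3) for the 15 member probe sets tested (y axis, gene and probe set); filled points are the probe set used for the gene, and the dashed line is the median of all genes tested, -0.42. The Mbp and Mobp probe sets lie on both sides of 0.

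In liver, Mag and Mbp were lower in FFPE by -1.85 ± 0.14 and -1.19 ± 0.15 (limma adjusted p = 1.45e-07 and 1.33e-05), 2 of 9 where 43.5% of all genes were lower. Opalin (1.05 ± 0.15), Mog (0.75 ± 0.16) and Cnp (0.55 ± 0.15) were higher (adjusted p = 4.28e-05, 0.00116 and 0.00444), 3 of 9 where 27.8% were. Mog lay below the array median on every liver array, and Mag and Mbp on every FFPE liver array, so these differences include low readings. On these probe sets the 5 kept their direction and their call under quantile normalization and median centring. The second probe set of Mbp (1451961_PM_a_at) went the other way in liver too, by 0.47 ± 0.16 (adjusted p = 0.0195). FFPE minus FF in brain was also set against the same in liver. Of the 4 genes that reached the array median on at least 3 liver arrays, Opalin (-1.08 ± 0.21), Mag (-0.65 ± 0.19) and Mal (-0.56 ± 0.18) passed below 0 on the deposited values (adjusted p = 0.00102, 0.0128 and 0.0162), where 36.4% of all genes did, and Cnp did not. Mag lay below the array median on the FFPE liver arrays. The other probe set of Cnp, tested on its own, had -0.46 ± 0.18 (adjusted p = 0.0494). Under quantile normalization none of these 3 passed (-0.33, -0.06 and 0.22). Mog, Ugt8a and Cldn11 had values of -2.53, -1.63 and -0.51, which are given without a test because their liver levels lay below the array median on every liver array.

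Among the 24 other oligodendrocyte genes tested, 21 were lower and 1 higher in FFPE brain (53.4% and 28.4% of all genes), with a median of -1.01. Under quantile normalization 15 were lower and 3 higher (43% and 34.5% of all genes), with a median of -0.56. Precursor markers had 9 of 12 lower on both scales, with medians of -0.98 and -0.79. Microglia markers had -1.14 and -1.02, and neuron markers -1.18 and -0.47, on the same 2 scales. The median of the 9 myelin genes was -0.69 on the deposited values and 0.20 under quantile normalization.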

How the data were processed

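The 12 arrays (Affymetrix, 1 per condition) were analysed from the log2 intensities that the authors deposited. The submitters' processing notes name Affymetrix Expression Console and RMA, a method that subtracts background, equalises arrays and sums up probes. Whether all arrays went through 1 run is not given in the sources used here. FF arrays had medians from 4.65 to 4.68 and FFPE arrays from 4.80 to 4.88, so levels are not fully on 1 scale across preservations. The number of arrays limits the precision, and arrays have no sequencing depth.

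Of 45141 probe sets, 104 were controls, 28898 named 1 gene, 551 named several and 15588 named none. Each gene took its probe set with the highest mean, and genes at or above the array median on at least 3 arrays were tested (13074). limma 3.58.1 in R 4.3.3 fitted a mean for each of 4 series (tissue by preservation) and, per tissue, a 3 h and an 18 h change: 8 coefficients, 4 residual degrees of freedom. Tests were two-sided, and p-values were adjusted over all genes by Benjamini-Hochberg (threshold 0.05). The fit was tested on simulated data. The spread behind the p-values is how far FF and FFPE arrays of a tissue disagreed in their changes over time, not a spread between replicates. That disagreement may be technical, since no label says which arrays come from separate animals.

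The members and all lists were chosen with earlier results of these data known. Genes named are the 9 members, up to 4 genes per list with the largest estimate in brain (both later times against 0 h), and the 8 genes most like the members; others are said to be chosen after their values were seen. Alternatives were the mean of all probe sets, quantile normalization, median centring, no filter, a robust spread, each tissue alone, every probe set on its own and leaving out each array. The medians of lists, their FFPE comparison and the array-order counts under these were added after seeing the data. List genes without a value and the Mbp upstream sequence were not analysed here.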

Additional observations from a re-analysis of the deposited data

Results flagged for a closer look

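For 6 of the 9 genes the FFPE-minus-FF difference in brain is given against that in liver (limma, brain value minus liver value, log2, adjusted over all genes, of which 54.9% were called in either direction). Opalin (-1.08 ± 0.21), Mag (-0.65 ± 0.19) and Mal (-0.56 ± 0.18) passed the test of that difference (adjusted p = 0.00102, 0.0128 and 0.0162), though not under quantile normalization (-0.33, -0.06 and 0.22). Mog (-2.53), Ugt8a (-1.63) and Cldn11 (-0.51) are given as values only, because they lay below the array median on all 6 liver arrays and passed the filter through brain alone. Preservation and labelling kit cannot be told apart in these values.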

How the results depend on the processing

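In brain at 3 h and at 18 h, 0 of the 9 genes passed under every alternative run, and the median of the 9 stayed positive, from 0.465 with the mean of all probe sets to 0.705 without the FF brain 0 h array at 3 h, and from 0.225 to 0.432 at 18 h. The counts of 7 and 6 genes in a shared order were the same under quantile normalization, median centring and the mean of all probe sets. For both later times together the median was 0.30 with the mean of all probe sets. Over left-out arrays Mog ran from -0.16 to 0.75 at 3 h, from -0.32 to 0.59 at 18 h and from -0.24 to 0.67 for both later times, each lowest without FF brain 0 h and highest without FFPE brain 0 h; it was also negative at 18 h without FF brain 18 h. Opalin ran from -0.178 (without FFPE brain 3 h) to 0.408 at 3 h, from -0.268 to 0.138 (without FFPE brain 18 h) at 18 h and from -0.121 (without FFPE brain 3 h) to 0.171 for both later times, where it was -0.003 under quantile normalization. The choroid plexus median at 18 h ran from -0.031 (without FF brain 0 h) to 0.684.

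Brain minus liver in FF had a median of 3.68, which was 2.82 with the mean of all probe sets, 3.20 under quantile normalization and 3.53 to 3.99 over left-out arrays. In FFPE it was 2.13, then 2.35 under quantile normalization and 2.05 to 2.3 over left-out arrays. FFPE minus FF in brain had a median of -0.69, which was -0.38 with the mean of all probe sets, -0.89 under median centring and 0.20 under quantile normalization. Under the last, Cldn11 was 0.447, Mobp 0.596, Mal 0.202 and Opalin 0.821, and Mbp was 0.228 with the mean of its probe sets. Opalin there ran from -0.225 to 0.105 over left-out arrays. The tissue difference of FFPE minus FF had a median of -0.56 and 6 calls, 3 of them for genes below the array median on every liver array (Mog, Ugt8a and Cldn11). Under quantile normalization Cldn11 was at 0.423, Mal at 0.224 and Cnp at 0.405, none of them called. Mobp, like Mog and Ugt8a below the array median on every liver array, was at 0.554. The tissue difference then had a median of 0.224 and 3 calls, Mog and Ugt8a below 0 and Mobp above 0. Over left-out arrays its calls ran from 3 (without FF brain 0 h or FFPE brain 0 h) to 7, and those of the tissue difference of the 18 h change from 0 to 1 (1 without FFPE liver 0 h). Genes at least 1.5-fold higher in FF brain numbered 2 at 3 h with the mean of all probe sets, and at 18 h 0 under quantile normalization and 2 with that mean. In FFPE brain the median at 3 h was 0.475 with that mean, and 1 gene was past that size at 18 h under quantile normalization. The cause of these shifts was not tested. No paired analysis was possible because each condition has 1 array and the labels carry no replicate number.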
